A study of Homo sapiens with 9 samples.

Results

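The hnRNP and SR splicing factors are the genes with a symbol of the form HNRNP, SRSF, PTBP, PCBP or TRA2 that are listed as protein coding, 42 of the 31558 genes measured, and among them is HNRNPK, whose protein the study examined as a partner of the lncRNA CRLM1 (LINC01767). They comprise 28 hnRNP genes (the PTBP and PCBP genes included), 12 SR genes and 2 TRA2 genes. Membership was set by symbol and gene type. The cells were HCT116, an established human colorectal cancer line, in 3 groups of 3 biological replicates: cells of a stable line that overexpressed CRLM1 (CRLM1-OE), cells with the empty plasmid (Ctrl), and cells with a plasmid that carries the antisense sequence of CRLM1 (Anti). All 3 groups carried the same lentiviral vector with GFP and puromycin resistance. Each group is 1 stable line, and whether that line was a clone is not given in the sources used here, so that p values measure the spread between cultures of these lines. Polyadenylated RNA was sequenced.

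Precursor mRNA is bound as it is made by hnRNPs, which often block the use of nearby exons, and by SR proteins, which often promote it, and the balance of these factors sets which exons a cell keeps. Many of these genes limit their own level: excess protein makes the cell splice its transcript into a form with a premature stop, which nonsense-mediated decay then degrades. hnRNPK binds runs of cytosine in RNA and in single-stranded DNA through KH domains, and it acts in transcription as well as in splicing.

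The CRLM1 sequence between the cloning primers is 545 nt long on the annotated transcript LINC01767-201, where it starts at base 46. It holds 9 runs of at least 3 C, the letters that hnRNPK is known to bind, and C makes up 26.4% of its bases. Whether it holds more runs than this make-up alone would give was not tested. The paper places an hnRNPK site in the last 105 nt, while its strongest binding signal came from the first fragment of CRLM1. Of the runs, 4 lie in these last 105 nt, positions 441 to 545 of the insert, which are shown with those runs in capitals.
CRLM1 positions 441 to 545: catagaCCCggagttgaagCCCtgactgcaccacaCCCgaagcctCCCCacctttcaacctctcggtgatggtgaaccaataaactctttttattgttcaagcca
Both start regions of HNRNPK in RefSeq hold CCCTCCCC, a C-rich element of the kind hnRNPK protein is known to bind, on one or the other strand. The second lies at chr9:83980166-83980465, and the first is shown (chr9:83980566-83980865 of GRCh38.p14, reverse strand, from 250 bases before the start to 50 after it), with the element in capitals.
HNRNPK: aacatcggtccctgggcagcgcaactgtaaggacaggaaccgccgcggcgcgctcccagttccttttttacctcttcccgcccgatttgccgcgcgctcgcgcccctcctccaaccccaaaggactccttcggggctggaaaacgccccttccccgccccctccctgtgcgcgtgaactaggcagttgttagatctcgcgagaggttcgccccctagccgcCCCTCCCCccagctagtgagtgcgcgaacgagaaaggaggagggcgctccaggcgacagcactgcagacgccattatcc
RefSeq start regions were found for 38 of the 42 genes, with 55 windows in all. CCCTCCCC, searched on both strands, occurred in 18 of these windows (32.7%), which belong to 15 genes, and in 13.6% of all 35116 windows. The median GC content was 65% in the windows of these genes and 58.7% in all windows, and its part in the difference was not tested. CACGTG, the E-box letters that MYC and related factors recognise and that read alike on both strands, occurred in 8 windows (14.5%, against 7.26% of all windows) of 7 genes. HNRNPM, HNRNPD and HNRNPA3, which had among the largest falls described below, are shown with HNRNPH3, which has the same letters and rose, with the E-box in capitals.
HNRNPM, chr19:8444725-8445024, forward strand: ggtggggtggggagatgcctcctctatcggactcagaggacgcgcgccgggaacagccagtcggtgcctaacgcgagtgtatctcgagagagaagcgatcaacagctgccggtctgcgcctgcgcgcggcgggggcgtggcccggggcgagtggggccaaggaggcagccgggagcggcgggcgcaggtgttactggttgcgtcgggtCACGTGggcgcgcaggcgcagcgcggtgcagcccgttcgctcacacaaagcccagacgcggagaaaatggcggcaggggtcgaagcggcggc
HNRNPD, chr4:82373942-82374241, reverse strand: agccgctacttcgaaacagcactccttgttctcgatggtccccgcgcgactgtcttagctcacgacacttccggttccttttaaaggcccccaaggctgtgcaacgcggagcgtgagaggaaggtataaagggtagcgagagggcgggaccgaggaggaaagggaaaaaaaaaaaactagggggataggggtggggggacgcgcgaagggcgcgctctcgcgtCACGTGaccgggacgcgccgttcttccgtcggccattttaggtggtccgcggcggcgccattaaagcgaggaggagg
HNRNPA3, chr2:177212544-177212843, forward strand: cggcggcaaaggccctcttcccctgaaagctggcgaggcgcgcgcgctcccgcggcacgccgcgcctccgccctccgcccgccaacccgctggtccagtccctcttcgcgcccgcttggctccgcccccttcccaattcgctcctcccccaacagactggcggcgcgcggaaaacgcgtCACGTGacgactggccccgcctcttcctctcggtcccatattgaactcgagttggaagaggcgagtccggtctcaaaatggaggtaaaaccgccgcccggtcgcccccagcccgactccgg
HNRNPH3, chr10:68331443-68331742, forward strand: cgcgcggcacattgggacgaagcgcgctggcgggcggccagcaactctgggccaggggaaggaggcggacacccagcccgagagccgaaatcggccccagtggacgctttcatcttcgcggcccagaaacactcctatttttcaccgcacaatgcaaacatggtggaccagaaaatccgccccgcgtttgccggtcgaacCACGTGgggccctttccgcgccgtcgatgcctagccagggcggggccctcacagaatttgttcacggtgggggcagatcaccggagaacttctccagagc
The letters thus occurred in genes that moved in opposite directions. TGACGTCA, the cAMP response element, was in 0 of the 55 windows and in 1.85% of all windows. A match of letters is a description and no binding was measured here.

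The 9 libraries held between 33302292 and 44514692 counts, so that 3 counts, taken as the floor, equal 0.0674 to 0.0901 CPM (counts scaled to library size). This floor covers counting error only. The CRLM1 gene was assigned 38704, 32751 and 35726 counts in CRLM1-OE, 0 in each Ctrl sample, and 1951, 1777 and 1540 in Anti. Whether strand was used in counting is not given in the sources used here. Whether the counts in Anti come from the antisense sequence that its plasmid carries was not tested. All 6 epithelial marker genes were above 1 FPKM (fragments scaled to exon length and to mapped fragments), with a summed level from 4644 to 5636 FPKM, whereas 5 fibroblast genes summed to at most 2.5 FPKM and 5 genes of blood and endothelium to at most 2.09 FPKM. The summed level of 6 neuronal genes ran from 36.5 to 44.3 FPKM, and 2 of them were above 1 FPKM. In bulk RNA, fewer cells that express a gene and less RNA per cell cannot be told apart.

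The splicing factors were mostly abundant in these cells. On the scale of FPKM, which allows a comparison between genes, the highest mean over the 3 groups belonged to HNRNPA1 (204), a repressor of exons and the best known hnRNP, followed by PCBP1 (197), HNRNPK (169), SRSF9 (158), HNRNPC (145) and PTBP1 (129). HNRNPA1 was first in Anti. In Ctrl its 212 ± 4.69 FPKM and the 213 ± 5.52 FPKM of PCBP1 (SD, n = 3 each) did not differ beyond the spread between replicates, and in CRLM1-OE its 161 ± 0.971 FPKM was below the 195 ± 2.59 FPKM of PCBP1. At the other end stood PCBP3 (0.967 FPKM), HNRNPA1L2 (0.771 FPKM), an intronless relative of HNRNPA1, and PTBP2 (0.248 FPKM), the paralog of PTBP1 that is known from neurons. SRSF12 had 1 count in all 9 samples, in a Ctrl library, which is below the floor. The other 41 genes had counts in every sample.

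**Figure D1:**
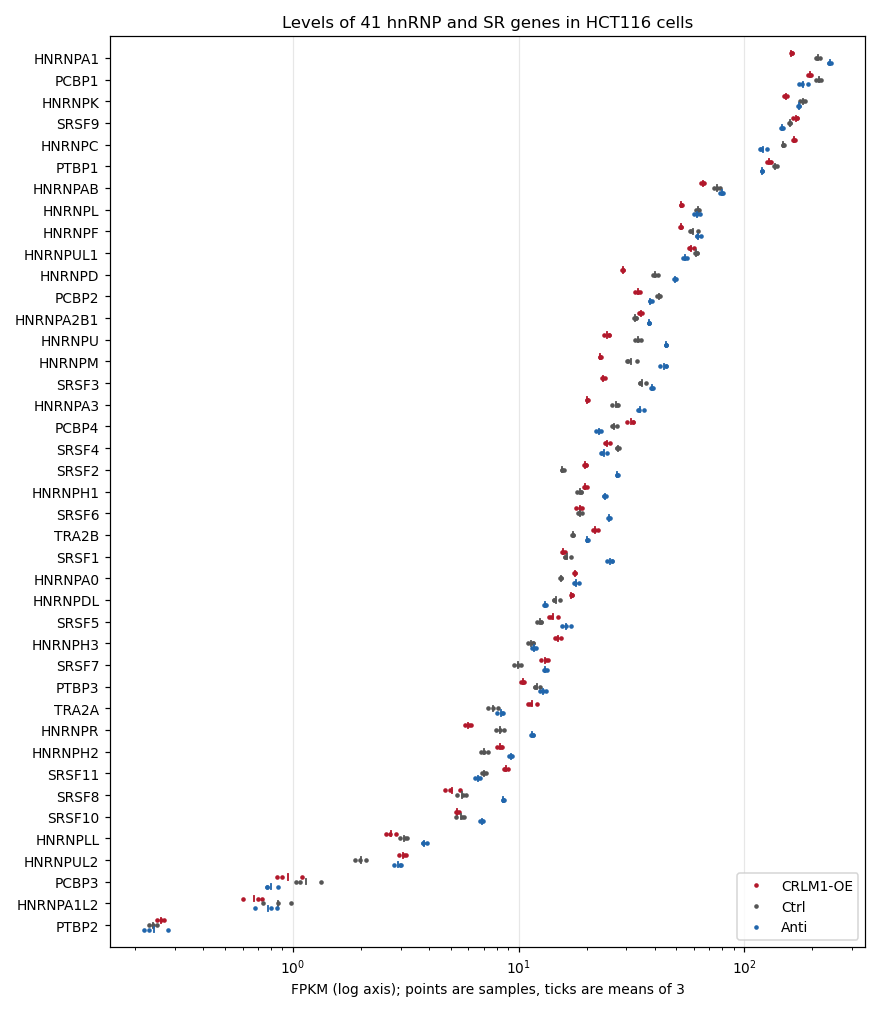
FPKM on a log axis for 41 of the 42 genes (SRSF12 is left out), ordered by their mean, with 3 points per group for the samples and a tick for each mean. The 6 most abundant genes lie above 100 FPKM in every group, and PTBP2 lies below 1 FPKM throughout.

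Against Ctrl, 24 of the 42 genes were lower in CRLM1-OE and 10 were higher at an adjusted p of at most 0.05 (edgeR, over all genes tested), with a median log2 fold change of -0.20. At the same threshold 16.8% of all 29846 genes tested were lower and 15.0% higher. Well-counted genes pass more often, and of the genes averaging 1000 counts or more 48.2% were lower and 28.5% higher, beside 57.1% and 23.8% of the splicing factors. None passed the 2-fold threshold as well, as 3.41% of all genes and 1.05% of the well-counted genes did. The CRLM1-OE samples lay below all Ctrl samples in 25 genes (19.3% of all genes, 49.9% of the well-counted) and above them in 12 (18.3% and 29.9%). The split depended on scaling: with total counts in place of TMM factors 17 genes were lower and 16 higher, as the median of 15944 genes that averaged 10 counts or more moved from -0.014 to 0.13. Measured from that median gene, the median splicing factor stood at -0.18 under either scaling. It stood nearer to the median of the well-counted genes, which was -0.076 with TMM factors and 0.065 with total counts.

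With total counts single genes moved up against Ctrl as well. Some falls of splicing factors described below still passed but were smaller by a factor of over 1.5. These were PCBP2 (-0.28), HNRNPK (-0.23), HNRNPL (-0.22), HNRNPAB (-0.18), PTBP3 (-0.18), HNRNPLL (-0.17), HNRNPF (-0.15), SRSF4 (-0.13), PCBP1 (-0.11) and PTBP1 (-0.059). Of the rises, those of HNRNPH3 (0.41), SRSF2 (0.37), TRA2B (0.36), SRSF11 (0.34), PCBP4 (0.28), HNRNPDL (0.25) and HNRNPA0 (0.23) were larger by such a factor.

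Against Anti, 24 of the 41 genes tested were lower and 9 higher, with a median of -0.24, beside 18.5% and 17.1% of all genes tested and 42.9% and 38.2% of the well-counted genes. None passed 2-fold, where 5.65% of all genes and 2.45% of the well-counted did. Without Anti replicate 1 there were 2 genes past 2-fold, and without CRLM1-OE replicate 2 there was 1. The samples did not overlap in 24 genes that were lower (21.0% of all genes, 44.4% of the well-counted) and in 9 that were higher (20.1% and 39.0%).

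Between the controls, 20 of 42 genes were higher in Anti than in Ctrl and 13 lower, where 11.5% and 12.2% of all genes tested and 24.4% and 42.6% of the well-counted genes passed. With total counts 24 were higher and 11 lower, as the median gene moved from 0.0051 to 0.11. None passed 2-fold, as 1.06% of all genes and 0.0537% of the well-counted did. The samples did not overlap in 21 genes that were higher (16.9% of all genes, 30.9% of the well-counted) and in 13 that were lower (14.0% and 40.8%). The 3 comparisons share samples, so their values are given side by side and are not independent.

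**Figure D2:**
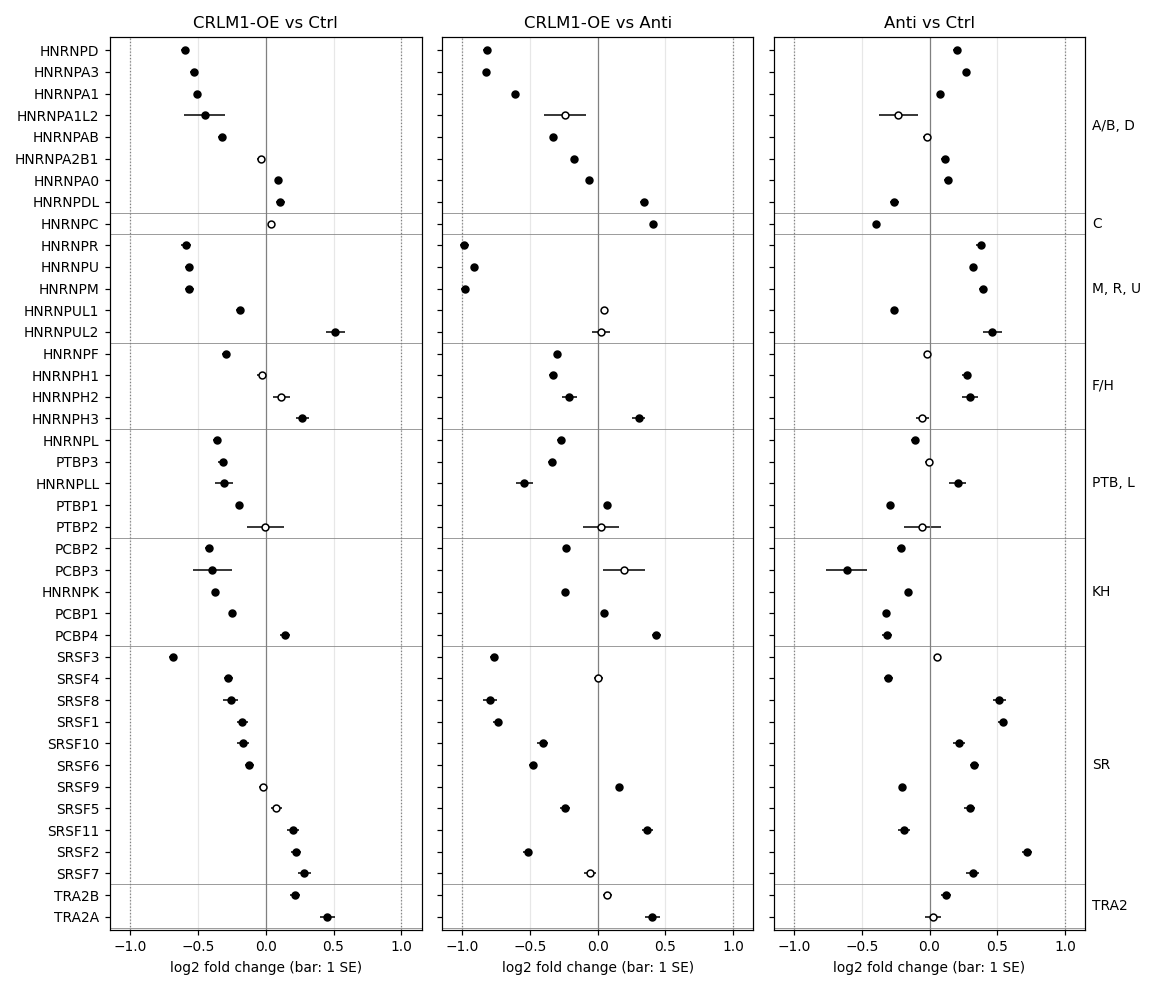
Log2 fold change with its standard error for 41 genes in the 3 comparisons, grouped by type, with filled points for an adjusted p of at most 0.05 and dotted lines at a 2-fold change. Against Ctrl the points run from -0.69 (SRSF3) to 0.51 (HNRNPUL2), and against Anti HNRNPR and HNRNPM come nearest to the 2-fold line.

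HNRNPK (ENSG00000165119, chr9:83968083-83980631, reverse strand, 34 annotated transcripts) was lower in the cells that overexpressed CRLM1. Its normalized CPM, scaled by TMM factors, was 505, 511 and 502 in CRLM1-OE, 668, 662 and 639 in Ctrl and 593, 599 and 604 in Anti. All CRLM1-OE samples thus lay below all samples of both controls, and Anti lay between CRLM1-OE and Ctrl. The log2 fold change of CRLM1-OE was -0.37 ± 0.021 (SE) against Ctrl with an adjusted p of 5.26e-69, and -0.24 ± 0.018 against Anti with an adjusted p of 5.73e-37. Anti differed from Ctrl by -0.16 ± 0.021 (adjusted p = 3.77e-13), which became -0.053 with total counts (adjusted p = 0.0336). The fall of HNRNPK mRNA against Ctrl was between -0.39 and -0.35 whichever sample was left out, and -0.23 with total counts.

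The other genes of the KH type, the poly(C)-binding proteins, lay partly in another order. PCBP1, an intronless gene whose protein binds C-rich RNA and delivers iron, had 371, 374 and 371 normalized CPM in CRLM1-OE, 449.7, 446 and 429 in Ctrl, and 345, 358 and 379 in Anti. CRLM1-OE was therefore below Ctrl (log2 fold change -0.25 ± 0.022, adjusted p = 1.11e-26) and overlapped with Anti, where the difference of 0.050 ± 0.020 (adjusted p = 0.0375) did not pass without Anti replicate 1 (0.014), CRLM1-OE replicate 1 (0.048), CRLM1-OE replicate 2 (0.042) or Anti replicate 2 (0.055). Nor did the difference of PCBP1 from Anti pass with DESeq2 (0.058), either limma fit (0.096) or all 9 samples (0.046). It passed in the other fits. PCBP1-AS1 on the opposite strand overlaps 73.2% of the exonic bases of PCBP1 and held 4.55% as many counts. PCBP2, the close relative of PCBP1, was lowest in CRLM1-OE, at 118, 118 and 115 normalized CPM, with 158, 158 and 154 in Ctrl and 136, 139 and 137 in Anti. Its log2 fold change was -0.42 ± 0.029 against Ctrl and -0.23 ± 0.027 against Anti (adjusted p = 1.30e-46 and 5.88e-17). A gene on the same strand that shares exonic bases with PCBP2, RP11-793H13.8, held 199.6% of its counts and moved alike (-0.46 ± 0.024 against Ctrl), so that the counts of the 2 genes may not be separable.

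PCBP4, known as a p53-induced member, went the other way. Its 81.6, 76.1 and 81.6 normalized CPM in CRLM1-OE exceeded the 71.4, 71.4 and 74.4 in Ctrl and the 57.5, 60.7 and 59.5 in Anti without overlap. The log2 fold changes were 0.14 ± 0.034 against Ctrl (adjusted p = 0.000186) and 0.43 ± 0.034 against Anti (adjusted p = 1.31e-36), and the second was the largest rise of any of the genes in that comparison. PCBP3 had only 77 to 135 counts per sample, and its difference from Ctrl of -0.40 ± 0.14 (adjusted p = 0.0197) was lost when CRLM1-OE replicate 1 (-0.31), CRLM1-OE replicate 3 (-0.37) or Ctrl replicate 3 (-0.26) was left out, and also with total counts (-0.25), DESeq2 (-0.39) and limma (-0.25 and -0.14). In Anti all 5 genes of this type were below Ctrl, from -0.61 (PCBP3) to -0.16 (HNRNPK), as were 42.6% of the well-counted genes and 12.2% of all genes. PCBP3 did not pass here with limma on log2(FPKM + 1) (-0.25), nor HNRNPK with either limma fit (-0.066 and -0.065).

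Against Anti the largest falls were found among the M, R and U type. HNRNPM (chr19:8444767-8489114) encodes a protein that binds GU-rich RNA and is known from the splicing changes of the epithelial-mesenchymal transition. It had 67.3, 67.5 and 68.3 normalized CPM in CRLM1-OE, 106, 97.1 and 97.1 in Ctrl and 129, 137 and 137 in Anti. The groups stood in that order without overlap, with a log2 fold change of -0.57 ± 0.033 against Ctrl (adjusted p = 1.02e-62) and -0.98 ± 0.029 against Anti (adjusted p = 1.17e-240). HNRNPR (chr1:23303771-23344336), a relative of SYNCRIP, had 49.4, 52.2 and 52.0 normalized CPM in CRLM1-OE, 79.4, 77.3 and 73.5 in Ctrl and 99.6, 102 and 103 in Anti. HNRNPU (chr1:244840638-244864560), also called scaffold attachment factor A, a nuclear protein that binds both chromatin and RNA, had 165, 163 and 158 in CRLM1-OE, 245, 242 and 233 in Ctrl and 304, 305 and 306 in Anti. The order was the same for both genes as for HNRNPM. Against Ctrl the log2 fold changes were -0.59 ± 0.037 for HNRNPR and -0.57 ± 0.026 for HNRNPU (adjusted p = 5.14e-55 and 2.19e-102), and against Anti they were -0.99 ± 0.033 and -0.91 ± 0.023 (adjusted p = 5.53e-195 and 1e-300, the smallest value written). All 3 genes were higher in Anti than in Ctrl, by 0.39 ± 0.030, 0.38 ± 0.032 and 0.32 ± 0.024.

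The HNRNPU relatives did not share this order. HNRNPUL1 had 271, 261 and 260.3 normalized CPM in CRLM1-OE, 302, 299 and 306 in Ctrl and 261, 257 and 252 in Anti, and with total counts its fall against Ctrl, -0.19 ± 0.024 in the TMM fit, was -0.052 (adjusted p = 0.0858). HNRNPUL2, linked to the repair of DNA breaks, was the gene with the largest rise against Ctrl: it had 16.4, 17.3 and 17.9 in CRLM1-OE and 11.96, 11.5 and 12.8 in Ctrl, a log2 fold change of 0.51 ± 0.070 (adjusted p = 1.72e-12). Its 17.1, 16.3 and 17.4 in Anti overlapped with CRLM1-OE (0.025 ± 0.064, adjusted p = 0.798). The readthrough gene HNRNPUL2-BSCL2 covers 44.3% of the exonic bases of HNRNPUL2 and held 438% of its counts, and it rose by 0.42 ± 0.036 against Ctrl.

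**Figure D3:**
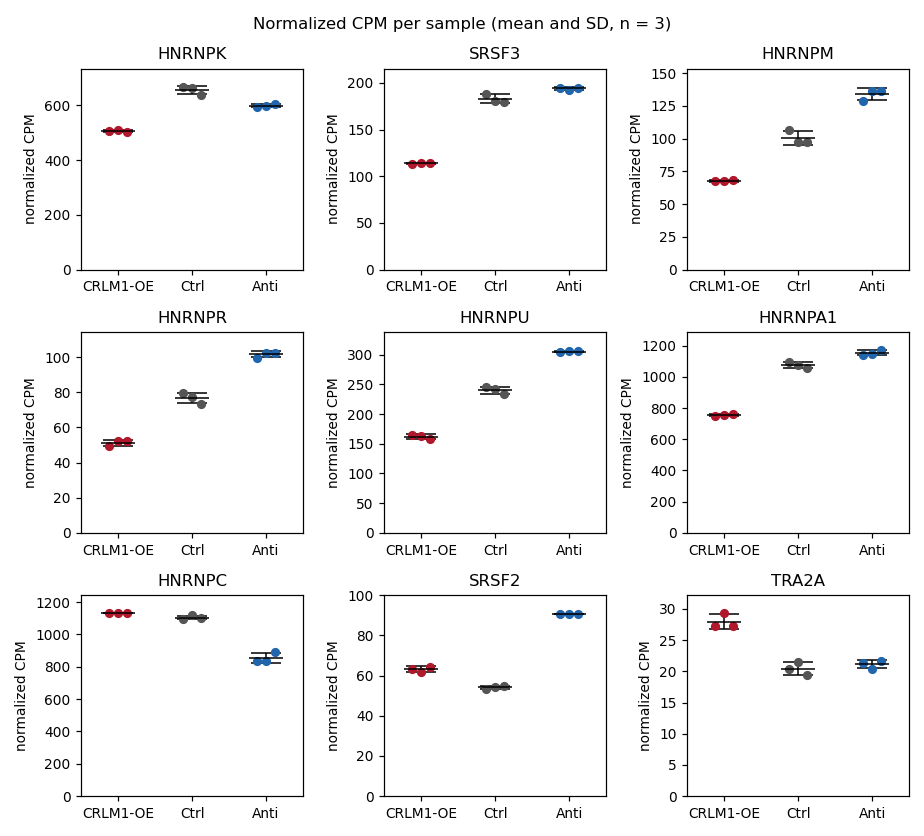
Normalized CPM of 9 genes by sample, with the mean and SD of each group of 3, on axes that start at 0. CRLM1-OE lies below both controls in HNRNPK, SRSF3, HNRNPM, HNRNPR, HNRNPU and HNRNPA1, while HNRNPC is lowest in Anti, SRSF2 highest in Anti and TRA2A highest in CRLM1-OE.

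Of the 8 genes of the A, B and D type, 5 were lower in CRLM1-OE than in Ctrl (62.5%, beside 48.2% of the well-counted genes) and 2 higher (25%, beside 28.5%). HNRNPD (chr4:82352498-82374503), known as AUF1, binds AU-rich elements and speeds the decay of the mRNAs that carry them. Its level was 96.2, 96.3 and 97.6 normalized CPM in CRLM1-OE, 141, 146 and 151 in Ctrl and 170.3, 169.6 and 173 in Anti. CRLM1-OE was lowest without overlap, by -0.59 ± 0.030 against Ctrl and -0.82 ± 0.027 against Anti (adjusted p = 2.66e-86 and 7.10e-205). HNRNPA3, a relative of HNRNPA1 (chr2:177212694-177223959), had 132, 131 and 135 in CRLM1-OE, 196, 186 and 194 in Ctrl and 232, 231 and 245 in Anti, again in this order, with -0.53 ± 0.028 against Ctrl and -0.83 ± 0.024 against Anti. NFE2L2 on the opposite strand overlaps 53.6% of the exonic bases of HNRNPA3. It held 36.7% of its counts and differed by -0.61 ± 0.036 against Ctrl and -0.49 ± 0.035 against Anti, and whether strand was used in counting is not given in the sources used here.

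HNRNPA1 (chr12:54280193-54287088), described here for its level after the values were seen, had 750.0, 753 and 764 normalized CPM in CRLM1-OE, 1095, 1073 and 1055 in Ctrl and 1142, 1146 and 1172 in Anti. All CRLM1-OE samples lay below those of both controls, by -0.51 ± 0.019 against Ctrl and -0.61 ± 0.017 against Anti (adjusted p = 6.66e-149 and 3.14e-290). Its 23 listed pseudogenes together held between 1.16% and 1.51% of its counts. HNRNPAB followed with -0.32 ± 0.028 and -0.33 ± 0.025. HNRNPDL, the nearest relative of HNRNPD, rose instead: it had 100.5, 99.8 and 100.3 normalized CPM in CRLM1-OE, 96.2, 91.4 and 91.3 in Ctrl and 78.0, 79.1 and 80.2 in Anti, or 0.11 ± 0.032 and 0.34 ± 0.030. HNRNPA0, intronless, rose by 0.092 ± 0.027 against Ctrl and stood at -0.064 ± 0.024 against Anti (adjusted p = 0.0252, and 0.890 with total counts). HNRNPA2B1, which reads N6-methyladenosine among other marks, was at -0.036 ± 0.028 against Ctrl (adjusted p = 0.414) and became 0.11 with total counts (adjusted p = 0.000919). HNRNPA1L2, at 79 to 117 counts per sample, fell by 0.45 on the log2 scale against Ctrl (adjusted p = 0.0111, and 0.117 with total counts), and all of its exonic bases are shared with RP11-78J21.7.

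HNRNPC, which covers uridine tracts and keeps cryptic exons out of mRNA, was set apart by its level in Anti. It had 1134, 1135 and 1130.3 normalized CPM in CRLM1-OE, 1095, 1118 and 1100.4 in Ctrl and 838, 837 and 892 in Anti. Anti was lowest without overlap (-0.39 ± 0.019 against Ctrl, adjusted p = 7.91e-92). CRLM1-OE exceeded Anti by 0.41 ± 0.016 (adjusted p = 1.99e-135), whereas the 0.037 ± 0.019 above Ctrl did not pass (adjusted p = 0.122). The latter difference passed with RLE factors (0.046), total counts (0.18), DESeq2, limma and both stricter filters on low counts, and also without Ctrl replicate 3 (0.053).

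Among the 4 genes of the F and H type, which bind runs of G, HNRNPH3 had 37.6, 38.9 and 37.6 normalized CPM in CRLM1-OE, 31.9, 32.2 and 30.4 in Ctrl and 31.3, 31.0 and 30.4 in Anti. Its CRLM1-OE samples lay above those of both controls, by 0.27 ± 0.047 and 0.30 ± 0.046 (adjusted p = 4.86e-08 and 2.64e-10). HNRNPF fell by comparable amounts, -0.30 ± 0.026 against Ctrl and -0.30 ± 0.023 against Anti. HNRNPH1 and HNRNPH2 did not pass against Ctrl (-0.029 ± 0.034 and 0.11 ± 0.061) and were lower against Anti (-0.33 ± 0.030 and -0.21 ± 0.057). With total counts both passed against Ctrl, HNRNPH1 at 0.11 and HNRNPH2 at 0.26 (adjusted p = 0.0036 and 0.00017).

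PTBP1 binds CU-rich tracts and represses neuronal exons in other cells, and it was lower in CRLM1-OE than in Ctrl but not than in Anti. It had 511, 513 and 502 normalized CPM in CRLM1-OE, 576, 586 and 593 in Ctrl and 485, 488 and 488 in Anti. The log2 fold change was -0.20 ± 0.021 against Ctrl (adjusted p = 6.06e-20, -0.059 with total counts) and 0.067 ± 0.019 against Anti (adjusted p = 0.00131). PTBP3, the paralog known from blood cells, had 95.0, 93.7 and 93.5 in CRLM1-OE, 121, 116 and 115 in Ctrl and 119, 123 and 116 in Anti. CRLM1-OE was below both controls by similar amounts, -0.32 ± 0.031 and -0.34 ± 0.028 (adjusted p = 9.56e-24 and 2.37e-31). PTBP2 had 107 to 155 counts per sample and differed in none of the comparisons past the threshold (from -0.052 to 0.026, standard errors from 0.13 to 0.14). HNRNPL, which binds CA repeats, fell by 0.36 on the log2 scale against Ctrl and by 0.27 against Anti. AC104534.3 on the same strand shares 8.64% of the exonic bases of HNRNPL and held 55.2% as many counts. That gene was at -0.27 ± 0.032 against Ctrl and -0.22 ± 0.030 against Anti. HNRNPLL, the regulator of CD45 splicing in T cells, was at -0.31 ± 0.065 against Ctrl and -0.54 ± 0.062 against Anti. The former did not pass with limma on log2(FPKM + 1) (-0.15, adjusted p = 0.0545).

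Of the 12 SR genes, 6 were lower against Ctrl (50%, beside 48.2% of the well-counted genes) and 3 higher (25%, beside 28.5%), shares near the background. Of 11 tested against Anti 7 were lower (63.6%, beside 42.9%) and 2 higher (18.2%, beside 38.2%). SRSF3 (chr6:36594353-36605600), which encodes the smallest SR protein, an adaptor for mRNA export that promotes growth in several cancers, had the largest fall of all 42 genes that passed against Ctrl. Its normalized CPM was 113, 114 and 114 in CRLM1-OE, 189, 181 and 179 in Ctrl and 195, 193 and 195 in Anti. The difference of Anti from Ctrl was 0.059 ± 0.026 (adjusted p = 0.0941), and the samples did not overlap. It passed with total counts (0.16), both limma fits (0.15) and both stricter filters on low counts (0.062 and 0.064). It also passed with all 9 samples (0.084) and without Ctrl replicate 1 (0.084). CRLM1-OE stood at -0.69 ± 0.028 from Ctrl and -0.77 ± 0.025 from Anti (adjusted p = 8.82e-128 and 2.02e-196).

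In SRSF1, SRSF8 and SRSF2 it was Anti that stood apart. SRSF1, the founding SR protein and a proto-oncogene, had 55.2, 55.6 and 54.7 normalized CPM in CRLM1-OE, 64.2, 61.1 and 61.1 in Ctrl and 93.0, 94.1 and 89.0 in Anti. Anti exceeded Ctrl by 0.54 ± 0.034 and CRLM1-OE stood at -0.74 ± 0.033 from Anti, while the difference from Ctrl, -0.17 ± 0.038, was only -0.032 with total counts (adjusted p = 0.551). SRSF8, an intronless copy of SRSF2, had 24.2, 20.7 and 22.1 in CRLM1-OE, 27.03, 27.9 and 25.4 in Ctrl and 38.6, 39.1 and 39.1 in Anti. The log2 fold changes were -0.79 ± 0.049 against Anti, 0.51 ± 0.048 for Anti against Ctrl, and -0.26 ± 0.055 against Ctrl, the last of which did not pass with total counts (-0.12, adjusted p = 0.0953). SRSF2, which binds exonic enhancers and is mutated in myeloid neoplasms, had 63.4, 61.7 and 64.4 in CRLM1-OE, 53.4, 54.1 and 54.9 in Ctrl and 90.7, 90.6 and 90.6 in Anti. Here CRLM1-OE lay between the controls, 0.23 ± 0.038 above Ctrl and -0.52 ± 0.032 from Anti, and the rise of Anti over Ctrl, 0.72 ± 0.035, was the largest of all the splicing factors in that comparison. SRSF1 shares 32.7% of its exonic bases with RP11-159D12.5 on the same strand, and SRSF2 27.6% with MFSD11 on the opposite strand, which held 20.1% and 24.1% as many counts.

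SRSF7, an SR protein with a zinc knuckle that works with SRSF3 in mRNA export, was higher in CRLM1-OE than in Ctrl. It had 35.9, 36.3 and 34.4 normalized CPM in CRLM1-OE, 27.9, 30.3 and 29.4 in Ctrl and 36.1, 37.1 and 37.8 in Anti, which is 0.29 ± 0.048 above Ctrl (adjusted p = 2.47e-08) and -0.057 ± 0.045 from Anti (adjusted p = 0.395). SRSF11 had 42.7, 44.3 and 43.8 in CRLM1-OE, 38.5, 37.9 and 37.3 in Ctrl and 33.7, 34.8 and 32.996 in Anti. It was highest in CRLM1-OE without overlap, by 0.20 ± 0.044 and 0.37 ± 0.044. SRSF4 had 66.2, 63.2 and 63.2 in CRLM1-OE and 62.5, 66.4 and 63.6 in Anti, which overlapped, and 78.6, 77.7 and 77.1 in Ctrl, which exceeded both (-0.28 ± 0.035 for CRLM1-OE and -0.30 ± 0.035 for Anti). SRSF9, the most abundant SR gene by FPKM, was at -0.024 ± 0.025 against Ctrl and 0.16 ± 0.023 against Anti, and with total counts the former was 0.12. GATC on the opposite strand overlaps 43.6% of the exonic bases of SRSF9 and held 14.6% as many counts. Of the others, SRSF5 was at 0.077 ± 0.040, SRSF6 at -0.12 ± 0.032 and SRSF10 at -0.17 ± 0.045 against Ctrl, of which the last 2 passed. With total counts SRSF6 was at 0.020 and SRSF10 at -0.025, and neither passed, while SRSF5 passed at 0.22 (adjusted p = 5.08e-07).

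Both TRA2 genes, whose proteins activate exons with GAA-rich enhancers, were higher in CRLM1-OE than in Ctrl. TRA2A had 27.3, 29.3 and 27.2 normalized CPM in CRLM1-OE, 20.3, 21.5 and 19.4 in Ctrl and 21.3, 20.4 and 21.7 in Anti. The controls overlapped and CRLM1-OE exceeded them by 0.45 ± 0.055 and 0.40 ± 0.054 (adjusted p = 3.20e-15 and 5.00e-13). TRA2B had 71.5, 71.9 and 75.5 in CRLM1-OE, 62.7, 63.2 and 62.5 in Ctrl and 69.1, 70.2 and 69.4 in Anti, which gives 0.22 ± 0.036 against Ctrl (adjusted p = 1.11e-08) and 0.072 ± 0.033 against Anti (adjusted p = 0.0795). The latter passed with RLE factors, total counts and the stricter filters, at 0.079 to 0.13.

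**Figure D4:**
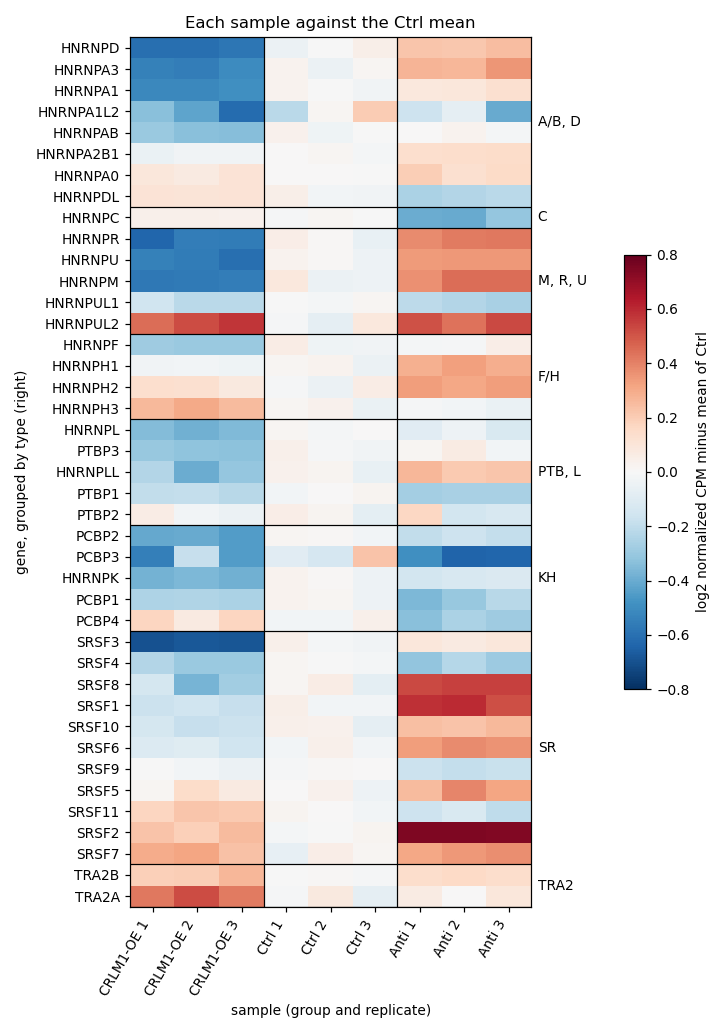
Log2 normalized CPM of 41 genes in each of the 9 samples minus the mean of the 3 Ctrl samples, grouped by type, with blue below and red above Ctrl. The 3 replicates of a group share their colour in most rows, and HNRNPM, HNRNPR, HNRNPU, HNRNPD and HNRNPA3 are blue in CRLM1-OE and red in Anti.

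The 8 A, B and D type genes summed to 346 ± 1.29 FPKM in CRLM1-OE, compared with 419 ± 7.01 in Ctrl and 471 ± 3.22 in Anti (SD, n = 3 each), and the groups did not overlap. The 5 M, R and U type genes summed to 115 ± 1.84, 137 ± 3.22 and 158 ± 0.558 FPKM in the same order. Other types differed. The KH type summed to 413 ± 5.28, 465 ± 10.1 and 418 ± 9.44 FPKM, and CRLM1-OE overlapped with Anti. So it did in the PTB and L type (195 ± 2.78, 215 ± 1.62 and 198 ± 2.26). The F and H type overlapped between CRLM1-OE (95.3 ± 1.28) and Ctrl (96.4 ± 2.94), below Anti (107 ± 1.17). HNRNPC and the TRA2 type were highest in CRLM1-OE (165 ± 1.77 and 33.3 ± 0.609). The 12 SR genes summed to 318 ± 5.93 FPKM in CRLM1-OE and 313 ± 2.09 in Ctrl, where the samples overlapped, and to 339 ± 1.13 in Anti. All 42 genes took 0.657% to 0.662% of the counts in CRLM1-OE, 0.698% to 0.708% in Ctrl and 0.723% to 0.734% in Anti.

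**Figure D5:**
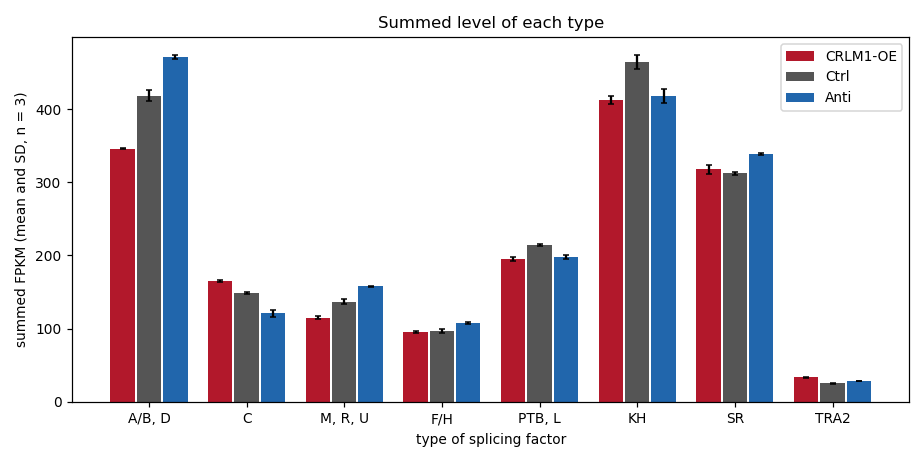
Summed FPKM of each type of splicing factor, as the mean and SD of 3 samples per group. The A, B and D type falls from 471 in Anti over 419 in Ctrl to 346 in CRLM1-OE, while the SR bars of CRLM1-OE and Ctrl are nearly level. FPKM carries no TMM factor.

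Most of the genes have a feature known to bear on their own control. In GENCODE 44, 32 of the 42 (76.2%) have at least 1 transcript annotated as a target of nonsense-mediated decay, compared with 42.6% of the protein-coding genes measured and 50.5% of those averaging 1000 counts or more. This holds for all 14 SR and TRA2 genes and for 18 of the 28 hnRNP genes. Gene counts sum the transcripts of a gene, so that coding and decay forms were not told apart here. Of 15 genes of the decay pathway, 4 rose (26.7%, beside 28.5% of the well-counted genes) and 5 fell (33.3%, beside 48.2%) against Ctrl, with a median of -0.077. UPF1, its central helicase, was at 0.40 ± 0.031 and SMG6, the endonuclease, at 0.58 ± 0.064, whereas UPF2 was at -0.31 ± 0.057 (adjusted p from 1.48e-36 to 4.90e-07).

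Genes that act with these factors were described from lists. Among 9 kinases that phosphorylate SR proteins, 3 rose (33.3%) and 4 fell (44.4%) against Ctrl, with a median of -0.12. These shares are near the 28.5% and 48.2% of the well-counted genes. CLK2 and CLK3, kinases that free SR proteins from nuclear speckles, were at 0.51 ± 0.058 and 0.19 ± 0.029 against Ctrl and at 0.71 ± 0.059 and 0.84 ± 0.028 against Anti. SRPK1, which drives SR proteins into the nucleus, was at -0.42 ± 0.040 and -0.57 ± 0.037. PRPF4B was past 2-fold at -1.09 ± 0.071 and -1.34 ± 0.068, with 1.90 FPKM in CRLM1-OE, compared with 3.75 in Ctrl and 4.67 in Anti. All 3 importers of SR proteins and hnRNPs fell against Ctrl by small amounts (from -0.17 to -0.11), as did 48.2% of the well-counted genes and 16.8% of all genes. With total counts the median gene moved from -0.014 to 0.13, a shift of similar size. None of the 3 passed against Anti. All 3 were also lower in Anti than in Ctrl (from -0.21 to -0.13), as were 42.6% of the well-counted genes and 12.2% of all genes.

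Of 9 hnRNP proteins that carry other symbols, 8 fell against Ctrl (88.9%, beside 48.2% of the well-counted and 16.8% of all genes) and none rose, with a median of -0.43. RBMX, known as hnRNP G, was at -0.87 ± 0.032 against Ctrl and -1.05 ± 0.029 against Anti, where it passed the 2-fold threshold.

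The core spliceosome had 24 of 44 genes lower and 6 higher against Ctrl, with a median of -0.11. That is 54.5% and 13.6%, beside 48.2% and 28.5% of the well-counted genes. Against Anti 17 were lower and 15 higher, with a median of -0.035, and these 38.6% and 34.1% are near the background of 42.9% and 38.2%. U2AF2, which binds the polypyrimidine tract, was at -0.64 ± 0.027 against Ctrl and PRPF6 at -0.51 ± 0.029, while SF3B2 was at 0.38 ± 0.024 and SNRPA1 at 0.36 ± 0.047. In 21 SR-related genes, 6 rose (28.6%, beside 28.5% of the well-counted genes) and 7 fell (33.3%, beside 48.2%) against Ctrl, with a median of -0.062. Among them were ARGLU1 (0.58 ± 0.067), RSRP1 (0.88 ± 0.12), BCLAF1 (-0.85 ± 0.057) and SCAF11 (-0.46 ± 0.052). Of 28 other regulators of splice choice, 11 rose (39.3%, beside 28.5% of the well-counted genes) and 8 fell (28.6%, beside 48.2%) against Ctrl, with a median of 0.23. RBM24, a factor of muscle, was at 1.24 ± 0.080 and NOVA2, a factor of neurons, at 1.28 ± 0.093, both past 2-fold, while NOVA2 reached only 1.44 FPKM in CRLM1-OE from 0.547 in Ctrl. ESRP1, the epithelial splicing regulator, was at -0.47 ± 0.030 and TIAL1 at -0.32 ± 0.037.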

How the data were processed

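RNA-seq of HCT116 cells was analysed in 3 groups of 3 replicates, as labelled. Per the submitters' notes, the authors trimmed reads (FASTX-Toolkit, minimum 16 nt) and aligned them with TopHat2 to GRCh38 and Gencode 23, allowing 4 mismatches. The authors deposited raw counts for each gene, and FPKM as a second table. The strand setting is not given in the sources used here.

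The 3 pairs of groups were each fitted with edgeR 4.0.16 (R 4.3.3; TMM, quasi-likelihood test, Benjamini-Hochberg adjustment) over genes with at least 1 count. Adjusted p values below 1e-300 are written as 1e-300. An exact permutation test of 3 against 3 samples cannot go below p = 0.1. The fits were tested on simulated data. Alternatives were RLE factors, total counts, filterByExpr, at least 10 counts per sample, DESeq2 1.42.0, limma 3.58.1 on log2(FPKM + 0.1) and log2(FPKM + 1), a joint fit of 9 samples, a replicate block, and leaving out each sample.

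Given in full were HNRNPK, the PTBP, PCBP and TRA2 genes, and the 5 largest rises and falls of each comparison (adjusted p of at most 0.05, mean count of at least 100). From each pathway list the 2 genes with the lowest adjusted p in each direction against Ctrl were named, apart from 2 that are not reported here. Values of other members, HNRNPA1 among them, were picked after they were seen. Members and lists were chosen with earlier results of these data known. Positions come from GENCODE 44, start regions from RefSeq.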

Additional observations from a re-analysis of the deposited data

How the results depend on the processing

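The median log2 fold change of the splicing factors kept its sign under every alternative. For CRLM1-OE against Ctrl it was -0.20, and -0.056 with total counts, -0.17 with at least 10 counts per sample, and -0.068 and -0.065 with limma on log2(FPKM + 0.1) and log2(FPKM + 1). Against Anti it was -0.24, and -0.18 with total counts, -0.22 with at least 10 counts per sample, and -0.18 with either limma fit. For Anti against Ctrl it was 0.043, and 0.15 with total counts, 0.064 with at least 10 counts per sample, 0.13 with either limma fit and 0.068 with all 9 samples. With total counts 16 genes were higher against Ctrl in place of 10. The difference of HNRNPK between Anti and Ctrl did not pass with limma (-0.066 and -0.065, adjusted p = 0.0894 and 0.0853), and that of PTBP3, which did not pass, turned to 0.10 with total counts (adjusted p = 0.00314). The cause was not tested.

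With each sample left out in turn, the genes higher numbered 10 to 11 against Ctrl, 8 to 10 against Anti and 20 to 21 between the controls, and those lower 22 to 24, 23 to 24 and 13. Past 2-fold there were 0 to 2 against Anti and 0 in the other comparisons. The median lay between -0.21 and -0.18 against Ctrl, between -0.25 and -0.20 against Anti, and between 0.029 and 0.072 for the controls. HNRNPK lay between -0.39 and -0.35, -0.25 and -0.22, and -0.17 and -0.14 in the same order. The replicate numbers did not pair the samples: the correlation of deviations between samples of the same number ran from -0.0749 to 0.0782. The fit with a replicate block gave 10 genes higher and 24 lower against Ctrl, 9 and 24 against Anti, and 20 and 13 between the controls. Of the values recomputed for the named splicing factors, 1121 kept their side of the threshold, 27 lost their call and 21 gained one. A further 1 changed its sign and passed in 1 of the fits. The 1121 include values that passed in neither fit and changed sign, such as PTBP2 against Ctrl (-0.0028, and 0.14 with total counts). Each group is 1 stable line, so that CRLM1 and any other difference between the lines cannot be told apart. Gene counts do not separate isoforms, and PCBP3, HNRNPA1L2 and PTBP2 were counted too thinly for small differences.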
